A study of Mus musculus with 12 samples.

Results

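The MHC class II presentation genes are 9 genes, taken by symbol from the count table of 55573 genes: the class II chain genes H2-Aa, H2-Ab1 and H2-Eb1, the invariant chain Cd74, the peptide editor genes H2-DMa, H2-DMb1 and H2-DMb2, the transactivator Ciita and the protease Ctss. All 9 passed the filter on low counts, as did 14197 of the 55573 genes. RNA-seq was made of mouse bone marrow macrophages that differed in genotype and in culture, with 3 libraries in each of 4 groups. Control mice (wt) were BMI1fl/fl and knockout mice (BMI1-KO) were BMI1fl/fl Mx1-Cre, all C57BL/6, all between 6 and 8 weeks old at injection, and all given 5 doses of poly-I:C (15 mg/kg), which switches on the Mx1 promoter in interferon-responsive cells, blood and marrow cells among them. The marrow was taken 4 weeks later, adherent cells were grown for 7 days in 5 ng/mL M-CSF (MΦs), and part of them were then kept for 48 hours with 5TGM1 cells, a mouse myeloma line (MM-MΦs). RNA came from cells sorted as CD11b+ F4/80+. The labels number the libraries without saying that they came from separate mice, so p-values measure the spread between these libraries, which may be technical. The poly-I:C was given to controls as well, so both genotypes carry that exposure, and the controls carry no Cre.

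Class II molecules show peptides from engulfed material to CD4+ T cells. An alpha and a beta chain pair in the endoplasmic reticulum around the invariant chain Cd74, which blocks the peptide groove and leads the complex to endosomes. Cathepsin S (Ctss) trims Cd74 there, and the H2-DM heterodimer exchanges the remaining Cd74 fragment for antigenic peptides. Transcription of all these chains runs through CIITA, a coactivator that does not bind DNA itself but is recruited by the RFX, NF-Y and CREB factors on the class II promoters. Macrophages carry little class II until interferon gamma or other cues induce Ciita, whereas dendritic cells and B cells express it constitutively.

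Library totals ran from 9662279 to 11142768 counts, and 17611 to 18370 genes had at least 1 count. Macrophage markers were high in all 12 libraries: the summed level of 8 of 8 genes lay between 12610 and 19130 CPM (counts scaled to library size, with TMM factors), led by Lyz2, Csf1r and Adgre1. Bmi1 had 251 to 364 counts in the 6 wt libraries and was listed at 0 in the 6 BMI1-KO libraries. Back-calculation of each total from the deposited FPKM gave 517 to 728 more than the sum of the listed counts in every BMI1-KO library, against -22 to 10 in wt, so counts of at least 1 feature are missing there and these zeros may not be measurements. Cdkn2a, a locus that BMI1 represses, had 108 to 230 counts in BMI1-KO and 0 to 7 in wt. The first principal component (36.4% of the variance) ordered the libraries by number. Those numbered 1 lay at -55.2 to -31.55, those numbered 2 at -11.5 to 4.19 and the 4 numbered 3 at 35.3 to 58.8.

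Levels of the 9 genes spanned a wide range per length. In deposited FPKM (fragments per kilobase of exon, scaled to depth), averaged over the 12 libraries, Ctss stood at 1164, Cd74 at 29.3 and H2-DMb1 at 15.2. H2-DMa followed at 7.5, H2-Ab1 at 4.38, H2-Eb1 at 2.35 and H2-Aa at 1.87, and H2-DMb2 (0.817) and Ciita (0.269) were lowest. Ctss alone stood clear of every other gene, since its lowest library (654 FPKM) was above the highest library of any other (84.9 FPKM, Cd74). The remaining neighbours in this order overlapped in their libraries. For H2-Ab1 the wt MΦ mean was 6.55 ± 3.55 FPKM (SD, n = 3) and the BMI1-KO MΦ mean 0.907 ± 0.56 FPKM, and for Cd74 it was 37.1 ± 22.1 and 6.5 ± 4.8 FPKM. H2-DMb1 stood at 16.8 ± 4.75 FPKM in wt MΦs and at 12.3 ± 1.68 FPKM in BMI1-KO MΦs. The ratio of H2-DMa to H2-Ab1 per length was 1.01 to 2.78 in the 3 wt MΦ libraries and 4.98 to 19.4 in the 3 BMI1-KO MΦ libraries, and the corresponding ratios in MM-MΦs were 0.744 to 2.32 and 1.92 to 10.4.

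**Figure D1:**
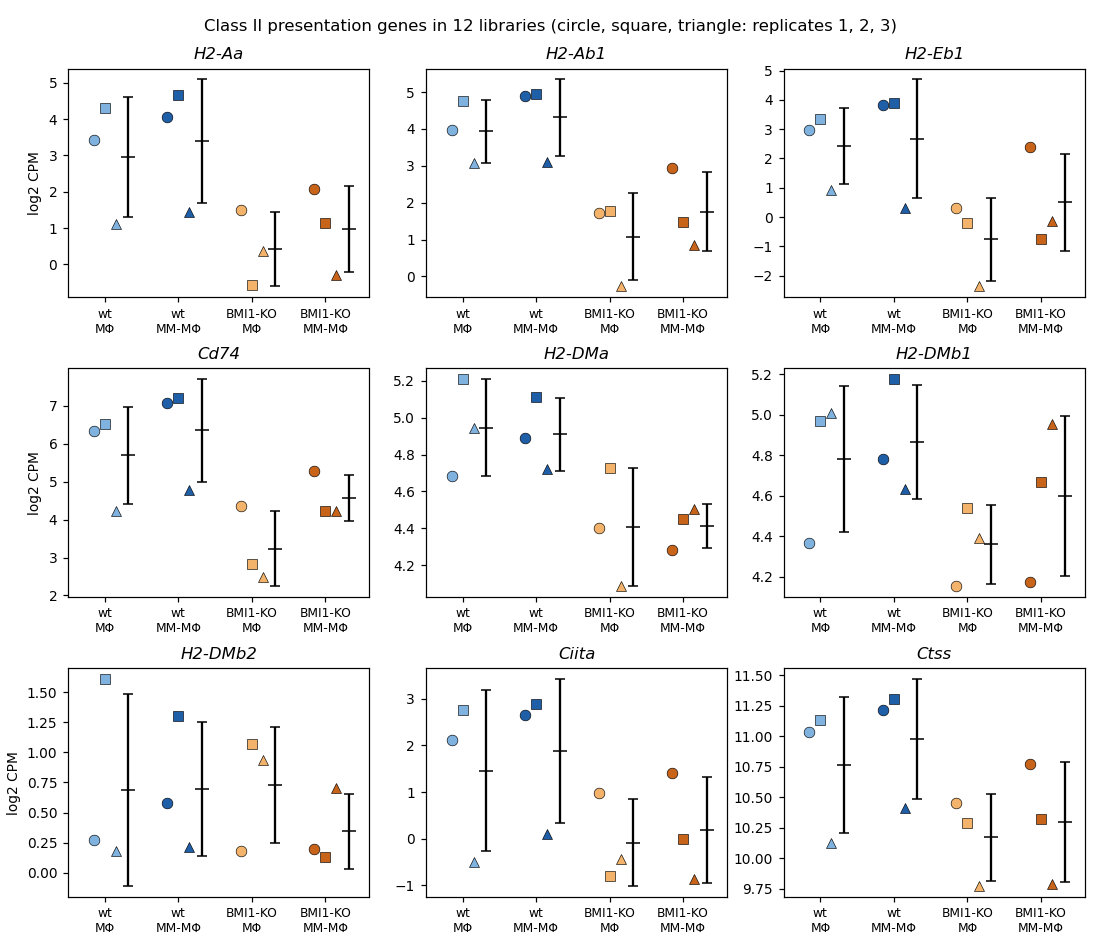
Level of each of the 9 genes (y axis, log2 CPM with a prior count of 2) in the 12 libraries, by group (x axis). Marker shapes give the replicate number (circle 1, square 2, triangle 3) and black bars the mean ± SD. H2-Ab1 lies lower in every BMI1-KO library than in any wt library of the same culture, whereas H2-DMb1 and H2-DMb2 overlap between genotypes in both cultures; the y axes differ between panels.

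Whether class II presentation genes differed between genotypes was asked first in the myeloma-exposed cells and then in the cells cultured alone. All 9 genes had a log2 fold change below 0 in BMI1-KO against wt MM-MΦs, with a median of -1.98, where the median of all 14197 genes tested was -0.02 and 52.4% lay below 0. All 9 were also below 0 in MΦs, with a median of -2.05 against -0.01 for all genes, of which 51.7% lay below 0, although H2-DMb2 turned above 0 in limma-voom (0.11) and without wt MΦ replicate 2 (0.63). The 3 chain genes, Cd74 and Ciita differed most, from -2.74 to -1.98 on the log2 scale in MM-MΦs, and H2-DMa, H2-DMb1, H2-DMb2 and Ctss lay between -0.68 and -0.25. None of the 9 passed an adjusted p of 0.05 in edgeR's quasi-likelihood test without a replicate block in either culture, where 9 genes (0.0634%) passed in MM-MΦs and 7 (0.0493%) in MΦs. At an unadjusted p under 0.05 there were 4 of the 9 in MM-MΦs (5.02% of all genes) and 5 of the 9 in MΦs (5.77% of all genes). DESeq2 called H2-Ab1 in MM-MΦs (adjusted p = 0.0393), where it called 0.627% of genes. In MΦs it called H2-Ab1 (adjusted p = 0.0123) and Cd74 (adjusted p = 0.0356), with 0.575% of genes called. The 3 libraries of each genotype did not overlap, with BMI1-KO lower, for 2 of the 9 genes in each culture, against 4.46% of genes in MM-MΦs and 4.83% in MΦs. With the 4 libraries numbered 3 left out, all 9 stayed below 0 in both cultures, with medians of -2.02 and -2.30, and none was called.

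**Figure D2:**
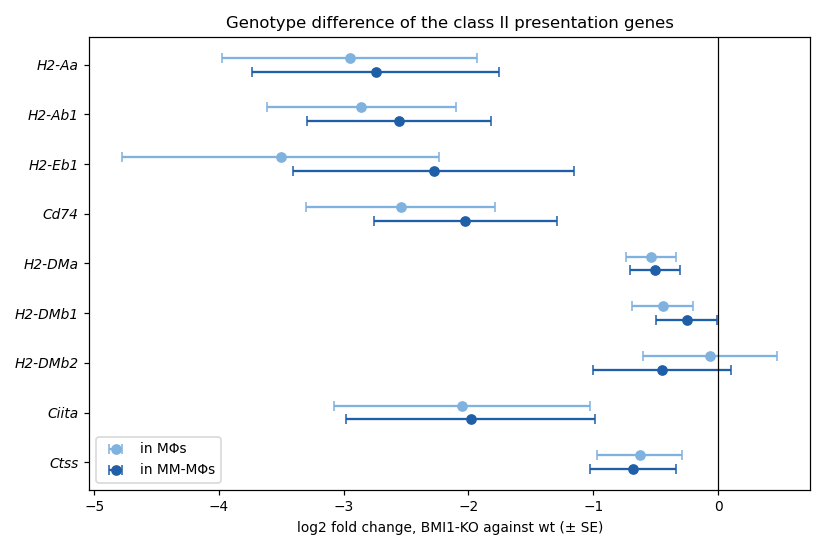
Log2 fold change of BMI1-KO against wt (x axis, with SE from edgeR) for each of the 9 genes (y axis), in MΦs (light blue) and MM-MΦs (dark blue). H2-Aa, H2-Ab1, H2-Eb1, Cd74 and Ciita lie between -3.51 and -1.98, and H2-DMa, H2-DMb1, H2-DMb2 and Ctss between -0.68 and -0.06.

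H2-Ab1, the beta chain of the I-A molecule (chr17:34257689-34269419), showed the clearest separation. Its level was 29.5, 30.5 and 8.42 CPM in wt MM-MΦs and 7.44, 2.61 and 1.61 CPM in BMI1-KO MM-MΦs (replicates 1 to 3 in this order, here and for the other genes). The groups did not overlap, and the closest pair was wt replicate 3 and BMI1-KO replicate 1. The log2 fold change was -2.56 ± 0.73 (SE), with an adjusted p of 0.508. In MΦs it stood at 15.5, 27.1 and 8.19 CPM in wt and at 3.12, 3.24 and 0.635 CPM in BMI1-KO. These groups did not overlap either, and the log2 fold change was -2.86 ± 0.76 (adjusted p = 0.446).

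H2-Aa, the alpha chain of I-A (chr17:34282744-34287823), had 16.5, 25.5 and 2.54 CPM in wt MM-MΦs and 4.04, 2.0 and 0.626 CPM in BMI1-KO MM-MΦs. Replicate 3 of wt lay inside the BMI1-KO range and the other wt libraries lay above it (log2 fold change -2.74 ± 0.99, adjusted p = 0.76). In MΦs the levels were 10.5, 19.8 and 1.96 CPM in wt and 2.6, 0.477 and 1.09 CPM in BMI1-KO. Here too only wt replicate 3 overlapped BMI1-KO (log2 fold change -2.95 ± 1.02, adjusted p = 0.667). H2-Eb1, the beta chain of I-E (chr17:34305867-34316674), had 13.9, 14.6 and 1.05 CPM in wt MM-MΦs and 5.0, 0.401 and 0.716 CPM in BMI1-KO MM-MΦs. BMI1-KO replicate 1 exceeded wt replicate 3 there (log2 fold change -2.28 ± 1.12, adjusted p = 0.999). In MΦs it had 7.72, 10.0 and 1.71 CPM in wt and 1.04, 0.667 and 0 CPM in BMI1-KO, without overlap (log2 fold change -3.51 ± 1.27, adjusted p = 0.708). The annotation places an antisense gene, Gm20513, over H2-Eb1, and without a stated strand setting reads of the pair cannot be told apart. C57BL/6 mice lack a working I-E alpha chain, and H2-Ea-ps had 0 counts in all 12 libraries, as did H2-Eb2.

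The peptide editors lay in the same stretch of chromosome 17 as the chain genes but differed less. H2-DMa, the alpha chain of H2-DM (chr17:34119541-34139101), had 29.5, 34.5 and 26.2 CPM in wt MM-MΦs and 19.2, 21.7 and 22.5 CPM in BMI1-KO MM-MΦs. The groups did not overlap, and the log2 fold change was -0.51 ± 0.20 (adjusted p = 0.868). In MΦs it had 25.5, 36.9 and 30.6 CPM in wt and 20.9, 26.3 and 16.8 CPM in BMI1-KO, where BMI1-KO replicate 2 exceeded wt replicate 1 (log2 fold change -0.54 ± 0.20, adjusted p = 0.733). H2-DMa shares its locus with Brd2 on the opposite strand, so its counts carry the same uncertainty as those of H2-Eb1. H2-DMb1, a beta chain of H2-DM (chr17:34153072-34160230), ranged from 24.6 to 36.01 CPM in wt MM-MΦs and from 17.9 to 30.9 CPM in BMI1-KO MM-MΦs. Both the groups and the MΦ libraries overlapped, and the log2 fold changes were -0.25 ± 0.24 in MM-MΦs (adjusted p = 0.999) and -0.44 ± 0.25 in MΦs (adjusted p = 0.954). H2-DMb2, the second beta chain gene (chr17:34143307-34151555), had 9 to 28 counts in all libraries and log2 fold changes of -0.45 ± 0.55 in MM-MΦs (adjusted p = 0.999) and -0.06 ± 0.54 in MΦs (adjusted p = 1.0). The longest transcripts of H2-DMb1 and H2-DMb2 were identical at 94.1% of 1219 aligned bases, with a shared run of 221 bases, so the split of reads between them is uncertain.

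Promoters of 4 members are shown so that the letters known to recruit CIITA can be read in genes with a large and with a small genotype difference. RefSeq promoters (GRCm38.p6, from 250 bases before to 50 after the start) were matched for 6 of the 9 genes. The Y box, the NF-Y core, was searched as GATTGG and the end of the X box, where RFX factors sit, as ACNGATG, both on either strand. Of all 32851 promoters 16.1% held the first and 9.85% the second. Positions -130 to -1 before the start are printed 5′ to 3′ on the gene's strand, with matches to either motif in capitals.
H2-Aa (chr17:34287824-34287953, minus strand): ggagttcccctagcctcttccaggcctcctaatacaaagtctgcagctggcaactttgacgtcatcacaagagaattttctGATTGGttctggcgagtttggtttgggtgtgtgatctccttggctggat
H2-Eb1 (chr17:34305737-34305866, plus strand): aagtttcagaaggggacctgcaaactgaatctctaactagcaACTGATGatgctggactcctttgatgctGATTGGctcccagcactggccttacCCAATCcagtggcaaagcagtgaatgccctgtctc
H2-DMb1 (chr17:34153061-34153190, plus strand): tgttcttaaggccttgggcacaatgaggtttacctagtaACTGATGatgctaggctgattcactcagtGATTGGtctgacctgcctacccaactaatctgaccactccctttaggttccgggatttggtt
H2-DMb2 (chr17:34145119-34145248, plus strand): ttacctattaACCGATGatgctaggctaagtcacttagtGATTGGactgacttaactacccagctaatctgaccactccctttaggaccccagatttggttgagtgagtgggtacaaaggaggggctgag
A Y box began at -49 in H2-Aa, -60 in H2-Eb1, -62 in H2-DMb1 and -91 in H2-DMb2, and H2-Eb1 held one more at -35 on the other strand. The X box letters began at -88 in H2-Eb1, -91 in H2-DMb1 and -120 in H2-DMb2. An X box match followed within 10 to 40 bases by a Y box, both on the gene's strand, was found in these 3 promoters and in 0.0396% of all promoters (13 of 32851). H2-Aa had no match to the X box letters in the printed stretch, and its only such match in the window lay at -232 on the other strand. The letters searched cover only the end of the X box, so a promoter without a match may still hold an X box. Ctss (chr3:95526786-95556403) had an X box match at -206 and no Y box, and of the 2 promoters listed for H2-DMa one held a Y box at -199 and the other no match. H2-DMb1 and H2-Eb1 carried the same pair of motifs at nearly the same places. Their log2 fold changes were -0.44 and -3.51 in MΦs and -0.25 and -2.28 in MM-MΦs. A link between these motifs and the genotype difference was not tested. A match is a string of letters and no evidence of binding.

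Ciita, the coactivator of these promoters (chr16:10480059-10528418), was the lowest of the 9 per length. It had 61, 70 and 10 counts in wt MM-MΦs and 23, 8 and 4 counts in BMI1-KO MM-MΦs, or 6.09, 7.24 and 0.877 CPM against 2.44, 0.802 and 0.358 CPM. Wt replicate 3 lay inside the BMI1-KO range, and the log2 fold change was -1.98 ± 1.0 (adjusted p = 0.999). In MΦs it had 41, 64 and 6 counts in wt and 17, 4 and 6 counts in BMI1-KO, with the same overlap (log2 fold change -2.05 ± 1.03, adjusted p = 0.921). Dexi overlaps the annotated Ciita gene on the opposite strand. Across the 12 libraries Ciita varied closely with H2-Aa (r = 0.973), Ctss (0.953), Cd74 (0.918), H2-Eb1 (0.892) and H2-Ab1 (0.84), and less with H2-DMa (0.518), H2-DMb2 (0.307) and H2-DMb1 (0.137). With each group's mean removed, the value for H2-Aa was 0.984, that for H2-Ab1 0.798 and that for H2-DMb1 -0.308. These correlations of log2 CPM describe 12 libraries that share genotypes, cultures and replicate numbers, and were not tested.

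The factors that meet CIITA at the promoter were compared by genotype in the same way. None of the 7 genes for RFX, NF-Y and CREB1 passed the test in either direction in any of the comparisons, with medians of -0.09 in MM-MΦs and 0.10 in MΦs. Of these Nfya, Rfxank and Nfyb, with the smallest p-values, had log2 fold changes of 0.84 ± 0.81, -0.22 ± 0.21 and -0.37 ± 0.38 in BMI1-KO against wt MM-MΦs (edgeR adjusted p of 0.999 each). In MΦs the values of Nfya, Rfxank and Nfyb were -1.15 ± 0.83, -0.29 ± 0.21 and 0.35 ± 0.38 (edgeR adjusted p of 0.973, 0.973 and 0.985). Nfya had 12 to 71 counts in wt MΦs and 5 to 30 in BMI1-KO MΦs, and its standard errors leave room for a sizeable difference. Of the interferon gamma route to Ciita (8 genes, among them those of the receptor, the JAK kinases, IRF1, IRF2 and USF1), none passed in either genotype comparison, and medians were 0.038 in MM-MΦs and 0.045 in MΦs. Among factors known to act on Ciita in myeloid and B cells, Spi1 (PU.1) had 0.10 ± 0.16, Irf8 0.23 ± 0.19 and Prdm1, a repressor of Ciita in plasma cells, -0.57 ± 0.39 in MM-MΦs. Irf4 had -0.47 ± 0.43 in MM-MΦs and -1.38 ± 0.45 in MΦs, where it stood at 4.52 to 13.6 CPM in wt and 1.91 to 3.53 CPM in BMI1-KO without overlap (adjusted p = 0.637).

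Cd74 acts as chaperone of the class II chains, and Ctss as the protease that trims Cd74. Cd74 (chr18:60803848-60812652) had 135, 146 and 27.3 CPM in wt MM-MΦs and 38.6, 18.4 and 18.7 CPM in BMI1-KO MM-MΦs. BMI1-KO replicate 1 exceeded wt replicate 3, and the log2 fold change was -2.03 ± 0.73 (adjusted p = 0.765). In MΦs it had 80.7, 91.1 and 18.5 CPM in wt and 20.3, 6.96 and 5.44 CPM in BMI1-KO. The overlap was again between those 2 replicates, and the log2 fold change was -2.54 ± 0.76 (adjusted p = 0.525). Ctss had 2379, 2530 and 1365 CPM in wt MM-MΦs and 1752, 1282 and 886 CPM in BMI1-KO MM-MΦs (a log2 fold change -0.68 ± 0.34, adjusted p = 0.999). In MΦs it had 2101, 2242 and 1117 CPM in wt and 1403, 1253 and 874 CPM in BMI1-KO (log2 fold change -0.63 ± 0.34, adjusted p = 0.949). In both cultures wt replicate 3 fell within the BMI1-KO range of Ctss and the other wt libraries lay above it. None of the 7 other genes of endosomal processing that were tested, cathepsins L, B, D, H and Z, legumain and Sppl2a, passed in either genotype comparison, with medians of 0.00 and -0.02. Ctsl had -0.59 ± 0.30 in MM-MΦs, Ctsz -0.25 ± 0.26 and Sppl2a, which clears the Cd74 stub from the membrane, 0.11 ± 0.14 (adjusted p = 0.999 each). Ifi30, the thiol reductase of this pathway, had at most 6 counts and did not pass the filter. March1 and March8, ligases that remove class II from the surface, and Cd83, which counters March1, had log2 fold changes of 0.06 ± 0.32, 0.08 ± 0.12 and 0.51 ± 0.64 in MM-MΦs (edgeR adjusted p of 0.999 each).

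Of the 3 dendritic cell markers tested, 1, Itgax, was lower in BMI1-KO without overlap of the libraries in both cultures, and none passed. Without overlap, 4.46% of all genes were lower in MM-MΦs and 4.83% in MΦs. The cells had been sorted as CD11b+ F4/80+, a macrophage gate. The summed level of the 11 dendritic markers was 96.9 to 544 CPM in wt MΦs and 91.5 to 596 CPM in wt MM-MΦs, against 17.3 to 66.0 and 17.6 to 56.8 CPM in BMI1-KO. Nearly all of it was Itgax (CD11c), an integrin of dendritic cells that macrophages can also express. Itgax stood at 188, 592 and 89.8 CPM in wt MM-MΦs and at 53.6, 31.7 and 14.2 CPM in BMI1-KO MM-MΦs, without overlap (log2 fold change -3.13 ± 0.86, adjusted p = 0.496). Of the other dendritic markers Siglech was at 0 in all libraries, and Flt3, Zbtb46, Ccr7, Cd209a, Clec9a, Xcr1 and Dpp4 did not pass the filter. Cd24a averaged 2.82 CPM and Batf3 0.977 CPM, with log2 fold changes in MM-MΦs of 0.31 ± 0.80 and -1.57 ± 0.87, and in MΦs of -0.33 ± 0.77 and -1.19 ± 0.78. The part of Itgax-expressing cells in the genotype difference was not tested, and in these bulk libraries fewer cells of a type and less RNA per cell cannot be told apart. The sum of the 7 B cell markers was 23.8 to 53.2 CPM in wt and 27.0 to 58.1 CPM in BMI1-KO. Nearly all of it was Cd22 and Cd79b, and the defining marker Fcer2a was at 0. The 2 genes went opposite ways by genotype, and neither passed. Cd79b had log2 fold changes of 0.96 ± 0.24 in MM-MΦs and 0.97 ± 0.25 in MΦs (edgeR adjusted p = 0.4155 and 0.383). Cd22 had -0.49 ± 0.65 and -0.48 ± 0.65.

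**Figure D3:**
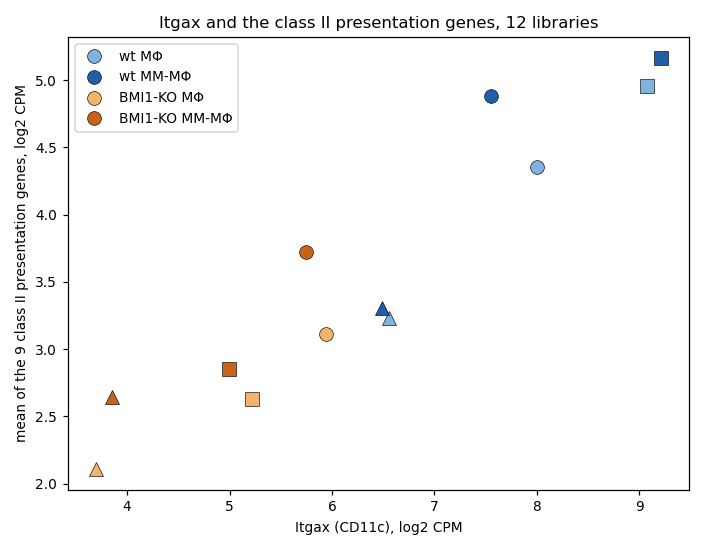
Mean log2 CPM of the 9 genes (y axis) against log2 CPM of Itgax (x axis) in the 12 libraries, coloured by group, with the replicate number as marker shape (circle 1, square 2, triangle 3). The 6 BMI1-KO libraries lie at or below 5.94 on the x axis and the 6 wt libraries at or above 6.49, and within each of the 4 groups replicate 3 is lowest on both axes.

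The genes that varied most like the 9 across the 12 libraries were sought among 13256 genes by the correlation of log2 CPM with the mean of the 9. They were Cd300ld (r = 0.966), Gm44206 (0.965), Mmp19 (0.963), Acp5 (0.955), Arhgap31 (0.95), Mfge8 (0.95), Gm2a (0.946), Rin3 (0.945), Itgax (0.94) and Napsa (0.94). Acp5 is tartrate-resistant acid phosphatase of osteoclasts and macrophages, Mfge8 a bridge for engulfing dying cells, Gm2a a lysosomal lipid carrier and Mmp19 a secreted protease. Acp5 ranged from 8.53 to 133 CPM and Mfge8 from 34.2 to 1058 CPM over the libraries. The choice depended on the measure: 3 of these 10 were in the leading 10 by Spearman's rho, and 1, Cd300ld, was in the leading 10 after each group's mean was removed (r = 0.986).

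The effect of myeloma co-culture was asked within each genotype, where libraries with the same number deviated together. Of the 9 genes 7 were above 0 in MM-MΦs against MΦs of wt (median 0.34, all genes 0.00) and 7 of the BMI1-KO values were (median 0.41, all genes -0.01). These directions were unstable: in wt H2-Aa, H2-DMb1, Ciita and Ctss, and in BMI1-KO H2-Aa, H2-Ab1, Ciita and Ctss, had values below 0 when a single library was left out. Without pairing, none of the 9 passed, where 13 genes (0.0916%) passed in wt and 27 (0.19%) in BMI1-KO, at an unadjusted p under 0.05 none of the 9 passed in either genotype (1.99% and 2.94% of all genes), and none had libraries without overlap (5.66% and 7.08% of all genes). With each genotype and number as a block, 1 of the 9 passed in each genotype, Cd74, where 156 genes (1.1%) passed in wt and 308 (2.17%) in BMI1-KO.

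Cd74 was higher in the MM-MΦ library of every pair. The log2 differences of the pairs numbered 1, 2 and 3 were 0.74, 0.68 and 0.55 for wt, whereas BMI1-KO pairs gave 0.92, 1.38 and 1.74. With the block Cd74 rose by 0.67 ± 0.12 on the log2 scale in wt (edgeR adjusted p = 0.00276) and by 1.31 ± 0.15 in BMI1-KO (adjusted p = 6.70e-06), and without the block the values were 0.70 ± 0.70 (adjusted p = 1.0) and 1.21 ± 0.74 (adjusted p = 1.0). With the libraries numbered 3 left out as well, the blocked values were 0.71 ± 0.12 (adjusted p = 0.0059) and 1.12 ± 0.15 (adjusted p = 0.000588). With the number alone as a block over both genotypes Cd74 did not pass, at 0.67 ± 0.36 in wt (adjusted p = 1.0) and 1.38 ± 0.41 in BMI1-KO (adjusted p = 0.31). The difference between genotypes was 0.64 ± 0.19 with the within-genotype block (adjusted p = 0.999). The other 8 genes did not pass with the block: H2-Ab1 had 0.39 ± 0.23 in wt and 0.69 ± 0.32 in BMI1-KO (adjusted p = 0.871 and 0.455), H2-Eb1 0.41 ± 0.38 and 1.66 ± 0.60 (0.992 and 0.238), and Ciita 0.42 ± 0.39 and 0.36 ± 0.50 (0.992 and 0.882).

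**Figure D4:**
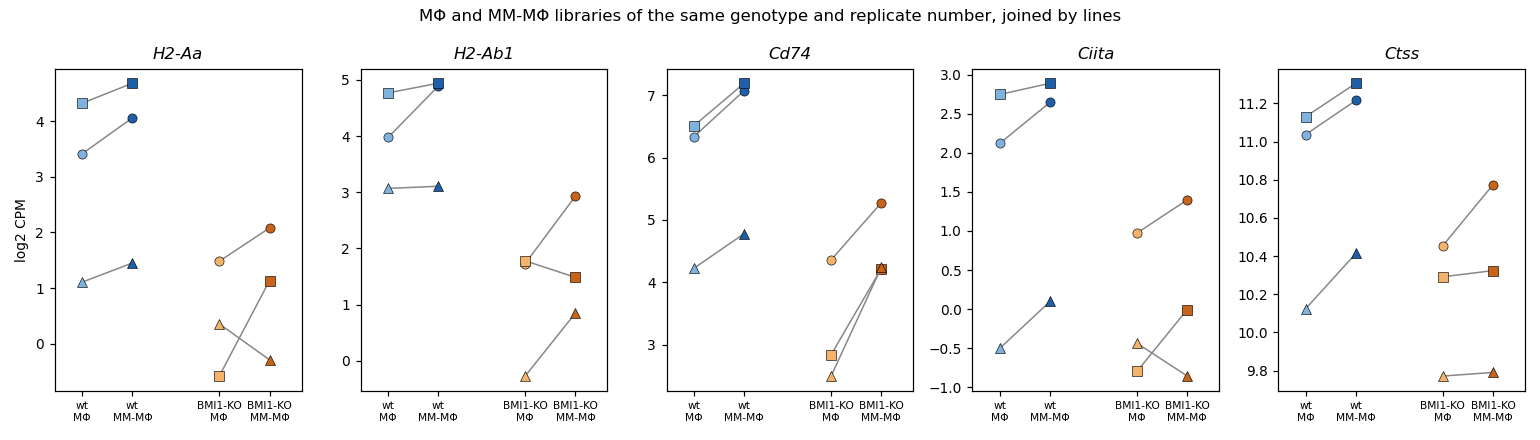
Log2 CPM (y axis) of 5 of the genes in MΦ and MM-MΦ libraries (x axis), with a line joining libraries of the same genotype and replicate number (circle, square and triangle for 1, 2 and 3). All 6 lines of Cd74 rise from MΦ to MM-MΦ, by 0.55 to 1.74, whereas H2-Aa, H2-Ab1 and Ciita each hold 1 line that slopes down, in BMI1-KO.

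Of the 8 markers of plasma and myeloma cells 4 were tested, and 3 of these rose with co-culture beside Cd74. Jchain, Mzb1, Tnfrsf17 and Derl3 did not pass the filter on low counts. The summed level of the 8 plasma and myeloma cell markers was 30.2 to 148 CPM in wt MΦs and 146 to 397 CPM in wt MM-MΦs, and 8.58 to 24.1 against 100 to 233 CPM in BMI1-KO. Igkc, the kappa light chain constant region, rose by 3.95 ± 0.23 in wt and 5.62 ± 0.28 in BMI1-KO with the block (adjusted p = 2.02e-09 and 1.38e-10), and Ighg2b and Pou2af1 also rose, so that 3 of the 4 markers tested were higher in each genotype. Sdc1 (CD138), which macrophages can express too, led the list in wt MΦs at 24.2 to 119 CPM. Sdc1 did not pass with the block, at 0.02 ± 0.16 in wt (edgeR adjusted p = 0.999) and 0.22 ± 0.19 in BMI1-KO (adjusted p = 0.781). The part of myeloma RNA in the Cd74 difference was not tested. Fcgr1, the high-affinity Fc receptor and the 1 of 8 macrophage markers to pass, named here after its values were seen, rose by 1.05 ± 0.11 in wt (adjusted p = 6.97e-06) and 1.15 ± 0.11 in BMI1-KO (adjusted p = 1.02e-06). Irf4 rose in BMI1-KO by 1.55 ± 0.27 (adjusted p = 0.00119), and was the 1 of the 4 Ciita regulators to do so. The part of myeloma RNA in the Irf4 difference was not tested either. Icosl, a ligand of the T cell costimulator ICOS, fell by 0.70 ± 0.17 in BMI1-KO (adjusted p = 0.0365), and the other costimulation genes Cd80, Cd86 and Cd40 did not pass in either genotype. None of the 7 promoter factors, the 7 processing genes and the 3 turnover genes passed in either genotype.

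Whether the genotype difference changed with co-culture was asked last. None of the 9 genes passed the interaction test in edgeR, DESeq2 or limma-voom, none had an unadjusted p under 0.05 in edgeR (129 of all genes, 0.909%), and none of the 14197 genes passed in edgeR (0%). With the within-genotype block 1 gene passed (0.00704%), which was none of the 9. The 9 values had a median of 0.19 on the log2 scale. The standard errors ran from 0.28 for H2-DMa to 1.65 for H2-Eb1, and limit what size of change could be detected.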

How the data were processed

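The counts were deposited by the authors as raw whole-number read counts per gene and used as deposited. The deposited FPKM values were made by the authors per kilobase of exon from the same counts, which they matched within 0.498% for the 9 genes, and served only to compare levels between genes. The submitters' processing notes list bcl2fastq 2.17.1.14, cutadapt 1.9.1, HISAT2 2.0.1, HTSeq 0.6.1 and DESeq2, with GRCm38; no source used here gives the strandedness of counting or the annotation version. Genes were filtered with filterByExpr (minimum count 10), scaled by TMM and tested with edgeR 4.0.16 (quasi-likelihood, 4 group means over 12 libraries) in R 4.3.3, with Benjamini-Hochberg adjustment over 14197 genes and a threshold of 0.05. Log2 CPM used a prior count of 2. DESeq2 1.42.0 and limma-voom (limma 3.58.1) were alternatives, beside other filters and scalings, each library left out, and fits with a replicate block. The test was tested on simulated data. Libraries sharing a number deviated together between MΦs and MM-MΦs of 1 genotype (correlations 0.548, 0.361 and 0.725 in wt, 0.642, 0.18 and 0.598 in BMI1-KO), so the block within genotype is printed there; the pairing comes from the data and the numbering, not from a stated design. The 9 genes, the gene lists and the tests were chosen with earlier results of these data known. Named were all 9 genes, all genes of lists of up to 4, the 3 with the smallest p of longer lists, the 3 highest of each marker list with markers at 0, and the 10 genes most correlated with the 9. Of 27 symbols turned into dates, 27 were restored by gene ID. Some genes of the lists are not reported here.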

Additional observations from a re-analysis of the deposited data

How the results depend on the processing

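Over the 14 alternatives run for each genotype comparison, 126 of 126 values of the 9 genes kept their direction in MM-MΦs and 122 of 126 in MΦs; over 16 alternatives each it was 129 of 144 for co-culture in wt and 134 of 144 in BMI1-KO, and over 21 it was 154 of 189 for the interaction. The cause of each change below was not tested. H2-DMb2, with 9 to 28 counts, is limited by depth, as are the libraries with fewer counts of H2-Eb1, Ciita, H2-Aa and H2-Ab1.

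DESeq2 called 1 of the 9 and 89 genes by genotype in MM-MΦs, 2 of the 9 and 80 genes in MΦs, and 58 and 91 genes for co-culture in wt and BMI1-KO. With no filter on low counts 21, 14, 22 and 42 genes passed in these 4 comparisons, and with only the 6 libraries compared 4, 2, 6 and 0 passed (edgeR). Limma-voom called 2 genes for co-culture in wt. It gave 0.106 for H2-DMb2 by genotype in MΦs, 0.021 for H2-DMb2 in wt co-culture, 0.014 for H2-DMa in BMI1-KO co-culture and -0.243 for the interaction of Ciita.

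Between genotypes the correlations for numbers 1 to 3 were 0.481, -0.031 and 0.503 in MΦs and 0.497, 0.033 and 0.508 in MM-MΦs. Libraries numbered 1 and 3 thus deviated together across genotypes and those numbered 2 did not. In each culture 4 of 6 libraries correlated best with their own number. The labels do not say what equal numbers share across genotypes. A replicate block over the 4 groups called 4 of the 9 and 181 genes (1.27%) in MM-MΦs, 4 of the 9 and 206 genes (1.45%) in MΦs, and none of the 9, Cd74 included, with 63 and 110 genes for co-culture. The genes called were H2-Aa, H2-Ab1, Cd74 and Ctss in MM-MΦs and H2-Ab1, H2-Eb1, Cd74 and Ctss in MΦs, with adjusted p-values from 0.00223 to 0.0414 and from 0.0016 to 0.038. Under this block H2-DMb2 was 0.009 by genotype in MΦs, H2-DMa 0.006 in BMI1-KO co-culture and the interaction of Ciita -0.085. The block within genotype called 1 of the 9 in each co-culture comparison, with 156 genes in wt and 308 in BMI1-KO, and 1 gene for the interaction. It turned H2-DMa in BMI1-KO co-culture to 0.005 and the interaction of Ciita to -0.058.

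Leaving out the 4 libraries numbered 3 was chosen after seeing the data. It left 1 gene called for co-culture in each genotype, with H2-DMa at 0.03 in wt and interactions of -0.239 (H2-DMa), -0.208 (H2-DMb1) and 0.018 (Ctss). With the block within genotype as well, 1 of the 9 and 99 genes passed in wt and 1 of the 9 and 156 genes in BMI1-KO. H2-DMa was 0.047 in wt, and the interactions were -0.251 (H2-DMa), -0.228 (H2-DMb1) and 0.003 (Ctss).

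With each library left out in turn, genes called by genotype ran from 3 to 10 in MM-MΦs and from 3 to 6 in MΦs, with 3 called in each culture without replicate 2 or 3 of wt or replicate 2 of BMI1-KO. They ran from 0 (without any 1 of the wt MΦ libraries or wt MM-MΦ replicate 1) to 3 for co-culture in wt and from 4 (without BMI1-KO MM-MΦ replicate 2) to 24 in BMI1-KO. The median of the 9 by genotype in MΦs ran from -2.977 (without BMI1-KO MΦ replicate 1) to -1.362 (without wt MΦ replicate 2), and H2-DMb2 there from -0.341 to 0.633. In wt co-culture H2-Aa ran from -0.18 to 1.256, H2-DMa from -0.17 to 0.097, H2-DMb1 from -0.109 to 0.186, H2-DMb2 from -0.492 to 0.619, Ciita from -0.181 to 1.023 and Ctss from -0.054 to 0.432. In BMI1-KO co-culture H2-Aa ran from -0.077 to 1.489, H2-Ab1 from -0.138 to 1.12, H2-DMa from -0.16 to 0.169, Ciita from -0.616 to 1.349 and Ctss from -0.114 to 0.377. The interaction ran from -0.577 to 1.028 for H2-Aa, -0.564 to 0.694 for H2-Ab1, -0.58 to 1.994 for H2-Eb1, -0.114 to 0.214 for H2-DMa, -1.074 to 0.037 for H2-DMb2, -0.956 to 1.009 for Ciita and -0.314 to 0.205 for Ctss. The order of the 9 by level per length was the same in CPM per kilobase.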

Other observations

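The summed level of the 6 neutrophil markers, led by the calprotectin genes S100a8 and S100a9, was 3.59 to 5.92 CPM in wt MΦs, 3.1 to 9.21 CPM in wt MM-MΦs, 3.36 to 28.7 CPM in BMI1-KO MΦs and 6.35 to 49.7 CPM in BMI1-KO MM-MΦs. The T and NK cell markers summed to at most 0.828 CPM, and Cd3e and Ncr1 were at 0 in all libraries. Of the costimulation genes, Cd80 lay between 13.7 and 26.0 CPM and Cd86 between 16.8 and 89.9 CPM over all libraries. Cd83 spanned 60.3 to 434 CPM. Of the H2-O chains, which restrain H2-DM, neither H2-Oa nor H2-Ob passed the filter on low counts.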
